A study of Bos taurus with 6 samples.

Results

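Growth hormone from the pituitary acts on liver through its receptor GHR, which signals through JAK2 and STAT5 and switches on transcription of IGF1, the gene for insulin-like growth factor 1. Liver is the main source of circulating IGF1, which promotes tissue growth and feeds back on growth hormone release. In cattle this axis is known to follow nutrition: liver GHR and IGF1 fall when feed energy is short, so that growth hormone can be high while IGF1 is low.

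The abundance of these transcripts, the receptor and the hormone that its signalling induces, was examined in liver biopsies of Angus x Simmental cattle. The pair was chosen by gene identifier, ENSBTAG00000001335 for GHR and ENSBTAG00000011082 for IGF1, and both were present among the 23833 genes counted. The deposited table carries identifiers without symbols. The symbols GHR and IGF1 came with the choice of genes, which credits them to Ensembl's cattle annotation, and were not checked against an annotation here. Rumen-protected niacin, a coated form of vitamin B3 meant to pass the rumen microbes intact, had been given to 3 of the cattle, and the other 3 were controls without it. Both groups had Bermudagrass hay at will, and each animal received 1.61 kg of fescue seed free of endophyte, 1.61 kg of a corn and soybean meal pellet and 0.1 kg of molasses a day. The sources used here do not give niacin dose, duration of feeding, age or sex. Each library has an animal code of its own, but separate animals are not stated outright, so p-values cover only the spread between these libraries. Libraries held between 48593701 and 111478194 counts, and niacin replicates 2 and 3 were the deepest.

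Neither GHR nor IGF1 differed detectably between niacin and control liver. GHR averaged 41.0 ± 22.4 CPM (SD, n = 3) in niacin liver against 33.8 ± 10.5 CPM (SD, n = 3) in control liver, where CPM is counts per 1e+06 counts of a library after scaling. IGF1 averaged 18.6 ± 11.0 CPM (SD, n = 3) in niacin liver against 18.3 ± 4.35 CPM (SD, n = 3) in control liver. The edgeR quasi-likelihood test called 0 of the 2 genes at an adjusted p under 0.05, while it called 17.7% of the 14839 genes tested and 21.8% of the 5266 genes that, like these, averaged 10 to 100 CPM. At an unadjusted p under 0.05 the number was also 0 of 2, and DESeq2 and limma-voom likewise called 0 of 2. In bulk liver, fewer cells of a type and less RNA per cell cannot be told apart.

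GHR, the receptor, measured 29.1, 27.1 and 66.9 CPM in niacin replicates 1, 2 and 3. In control replicates 1, 2 and 3 it measured 45.6, 30.3 and 25.5 CPM. Niacin replicate 3 was the highest library of all and the other niacin libraries lay within the range of the controls, so the groups overlapped. The fitted log2 fold of niacin over control was 0.28 ± 0.38 (SE, edgeR adjusted p = 0.695), and its 95% interval ran from -0.53 to 1.09. A rise of more than 2.13-fold or a fall to less than 0.693 of the control level thus lay outside this interval. Smaller changes in either direction lay within it. Its width rests on a variance that edgeR partly borrows from other genes (16.9 degrees of freedom). The interval reached up to 1.49 without control replicate 1 and down to -0.99 without niacin replicate 3. The median of niacin, 29.1 CPM, was close to that of the controls, 30.3 CPM. Without niacin replicate 3 the log2 fold turned to -0.30 (edgeR adjusted p = 0.524), and without control replicate 1 it was 0.58 (edgeR adjusted p = 0.451).

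IGF1, the hormone gene downstream of the receptor, measured 31.2, 10.9 and 13.7 CPM in niacin replicates 1, 2 and 3. In control replicates 1, 2 and 3 it measured 17.0, 23.2 and 14.9 CPM. The niacin libraries held both extremes: replicate 1 lay above every control, and replicates 2 and 3 lay below every control. The fitted log2 fold was 0.02 ± 0.39 (SE, edgeR adjusted p = 0.984), and its 95% interval ran from -0.81 to 0.85, that is, from 0.571 to 1.80 times the control level. The mean on the log2 CPM scale put niacin lower, by a difference of -0.11, and the two-sided exact permutation p was 0.8. Without niacin replicate 1 the log2 fold was -0.57 (edgeR adjusted p = 0.446), and without niacin replicate 2 it was 0.23 (edgeR adjusted p = 0.807). The same permutation test for GHR gave a difference of 0.19 and p = 0.7, where 0.1 is the smallest p that an exact test of 3 libraries against 3 allows.

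**Figure D1:**
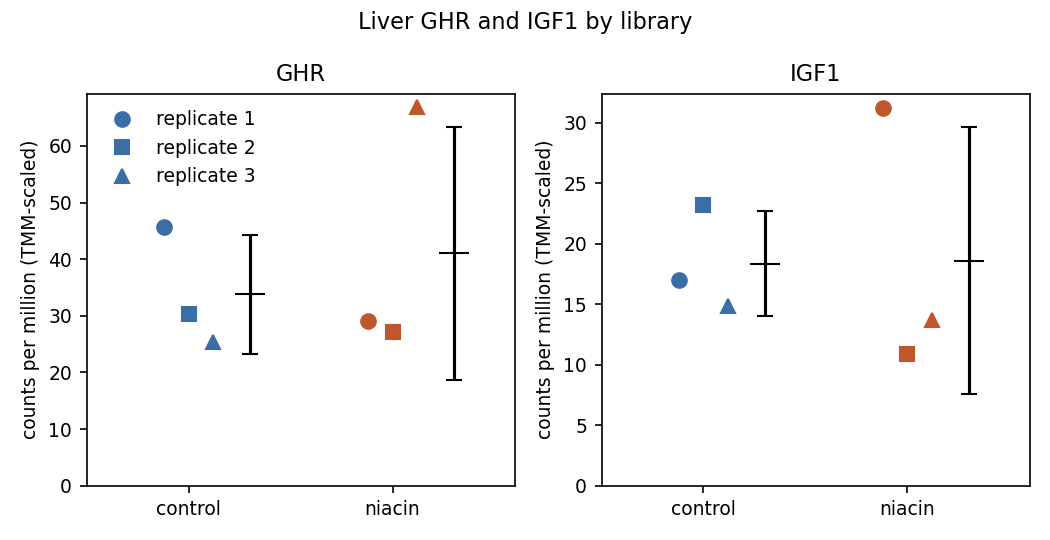
TMM-scaled CPM of GHR (left) and IGF1 (right) in each control (blue) and niacin (orange) library, with the marker shape giving the replicate and the black bar the mean ± SD of 3 libraries. Niacin replicate 3 was highest for GHR at 66.9 CPM and niacin replicate 1 was highest for IGF1 at 31.2 CPM, and both genes overlapped between the groups.

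Groups that did not overlap were found for 34.4% of the tested genes, and for 0 of these 2. Ordered by unadjusted p, GHR ranked 10152 and IGF1 14484 among the 14839 tested genes. A larger log2 fold in size was fitted for 73.7% of the tested genes than for GHR, and for 98.1% than for IGF1. These shares include genes of low count, whose folds can be large and noisy, and were not taken within 10 to 100 CPM. As a reference, the log2 fold had a median of 0.07 over all tested genes and of -0.06 over genes of 10 to 100 CPM.

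**Figure D2:**
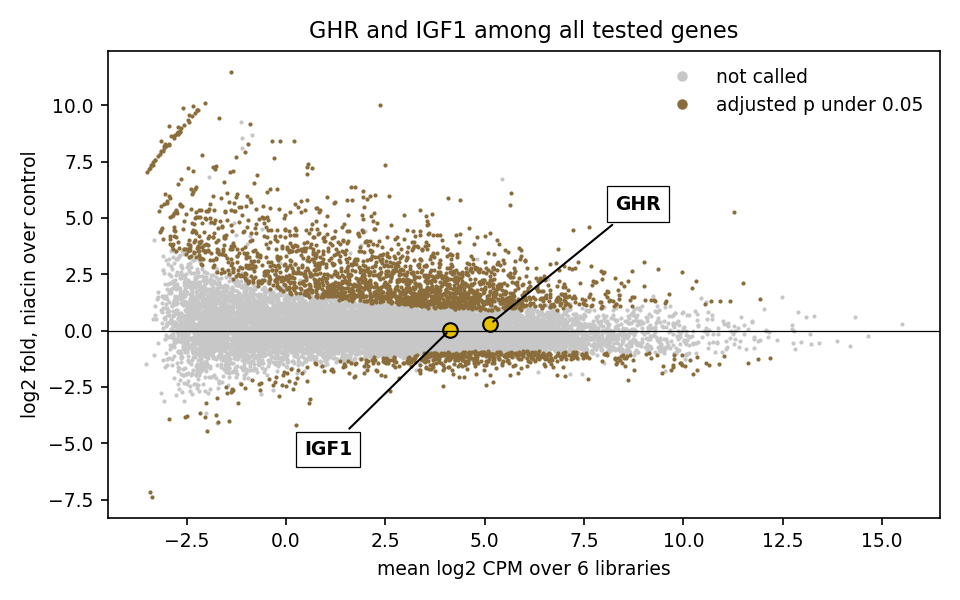
Log2 fold of niacin over control against mean log2 CPM over the 6 libraries for the 14839 tested genes, with those at an edgeR adjusted p under 0.05 in brown and the others in grey. GHR (log2 fold 0.28) and IGF1 (log2 fold 0.02) are marked in yellow and lie among the genes that were not called.

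The spread between niacin libraries was wide for both genes. From the lowest to the highest niacin library, GHR differed 2.46-fold and IGF1 2.86-fold, against 1.79-fold and 1.56-fold among controls. On the log2 CPM scale the SD of GHR was 0.72 with niacin and 0.43 in controls. For IGF1 the SD was 0.80 with niacin and 0.33 in controls. Among the 5266 genes of 10 to 100 CPM, the median SD was 0.42 with niacin and 0.32 in controls, and 89.2% of them had a lower niacin SD than GHR and 92.7% a lower niacin SD than IGF1. In controls the shares with a lower SD were 70.2% for GHR and 52.7% for IGF1. Each SD rests on 3 libraries, and the difference in spread between the groups was not tested.

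**Figure D3:**
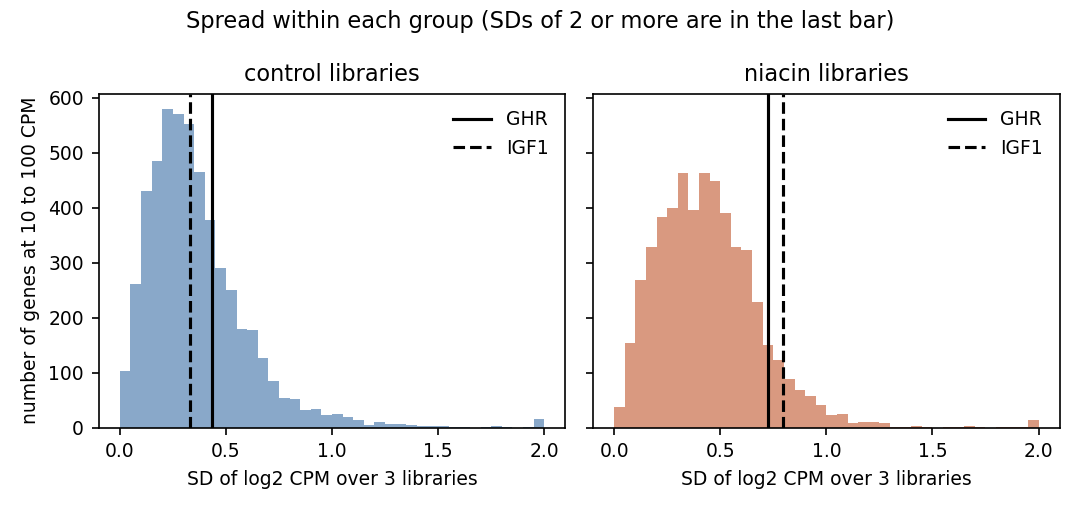
Number of genes, out of the 5266 that averaged 10 to 100 CPM, by the SD of log2 CPM over the 3 control (left) and 3 niacin (right) libraries. GHR (solid line) and IGF1 (dashed line) lie in the upper tail with niacin, at 0.72 and 0.80, and nearer the middle in controls, at 0.43 and 0.33.

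Counting error, taken as binomial, was small beside these differences. Niacin replicates 1, 2 and 3 held 1600, 2867 and 6226 GHR counts, against 2460, 1417 and 1397 for control replicates 1, 2 and 3. Before scaling, GHR in niacin replicate 3 was 68.3 CPM with an exact (Clopper-Pearson) 95% binomial interval of 66.6 to 70.0 CPM, and in niacin replicate 2 it was 25.7 CPM with an interval of 24.8 to 26.7 CPM. Niacin replicates 1, 2 and 3 held 1718, 1152 and 1275 IGF1 counts, against 914, 1086 and 815 for control replicates 1, 2 and 3. The smallest of them, 815 counts in control replicate 3, gave 16.7 CPM before scaling with an interval of 15.6 to 17.9 CPM. These intervals cover counting error only and treat each read as independent. Reads were counted without molecular identifiers, so duplicate reads are not set apart and the intervals may be too narrow.

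The place of each gene in the order of all tested genes within a library, which needs no scaling between libraries, followed the same pattern. Genes were ordered by CPM and not per length, so the place is compared only for 1 gene across libraries. In niacin replicates 1, 2 and 3, GHR had 76.7%, 75.2% and 88.5% of tested genes below it. In control replicates 1, 2 and 3 these shares were 84.4%, 77.6% and 76.0%. Niacin replicate 3 again stood highest for the receptor. IGF1 had 77.6%, 58.3% and 62.3% of genes below it in niacin replicates 1, 2 and 3. In control replicates 1, 2 and 3 the shares were 69.2%, 73.3% and 66.4%, again between the niacin extremes.

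The receptor and the hormone gene were not high in the same libraries. Niacin replicate 3, the highest for GHR, was next to lowest for IGF1, and niacin replicate 1, the highest for IGF1, lay below 3 libraries for GHR. Over the 6 libraries the log2 CPM of GHR and IGF1 had a Pearson r of -0.20 (exact permutation p = 0.725) and a Spearman rho of 0.09 (exact permutation p = 0.919). No other relation across libraries was given a p, so these p-values are unadjusted. Without niacin replicate 3 and control replicate 1, the libraries farthest from the GHR median, r was 0.70 over the remaining 4, so its sign rested on those libraries. A group of 3 libraries is too small for a value within it.

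The number of IGF1 counts per GHR count in a library shows whether the genes moved by the same factor, and gene length cancels when libraries are compared. It was 1.07, 0.402 and 0.205 in niacin replicates 1, 2 and 3. In control replicates 1, 2 and 3 it was 0.372, 0.766 and 0.583. The niacin libraries again held the highest and the lowest value, a 5.24-fold range against 2.06-fold in controls. On the log2 scale the ratio averaged -1.17 ± 1.20 (SD, n = 3) in niacin liver and -0.86 ± 0.53 (SD, n = 3) in control liver, a difference of -0.30 with an exact permutation p of 0.8. Without niacin replicate 3 the difference was 0.26, and without niacin replicate 1 it was -0.94 (exact permutation p = 0.7 and 0.3).

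**Figure D4:**
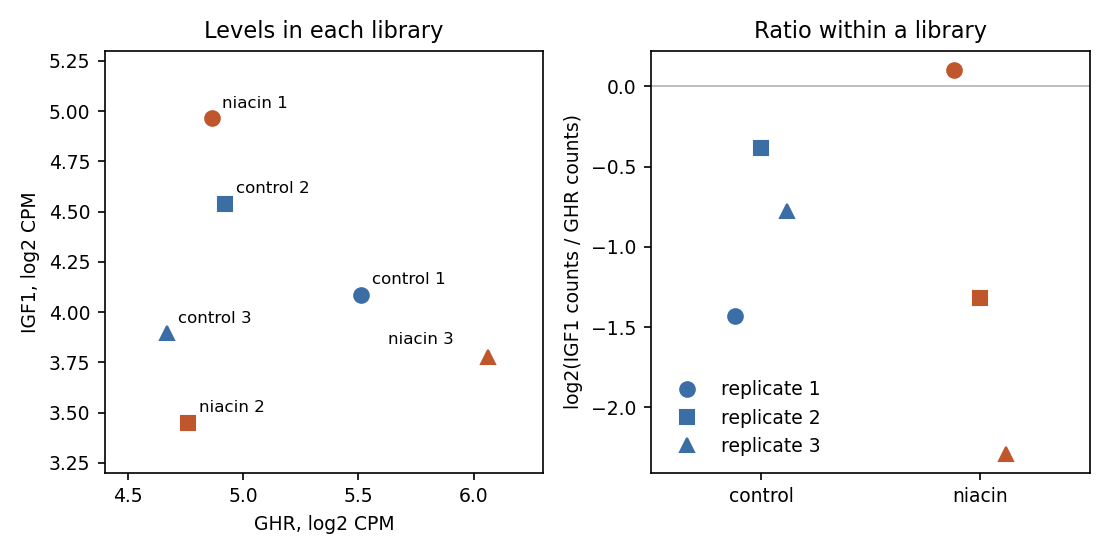
Left, log2 CPM of IGF1 against that of GHR in each of the 6 libraries; right, log2 of IGF1 counts over GHR counts within each library, by group. Control libraries are blue, niacin libraries orange, and marker shape gives the replicate: niacin replicates 1 and 3 lie at opposite ends of the ratio, at 0.10 and -2.29.

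The code of each library ends its second field in M or F, a letter whose meaning is not stated, and replicate 2 of each group carries the F. Between these F libraries the log2 CPM difference of niacin minus control was -0.16 for GHR and -1.09 for IGF1, with 1 library per group and so no test. Among the M libraries, 2 per group, it was 0.37 for GHR and 0.38 for IGF1. With the letter as a term the fitted log2 folds were 0.24 for GHR and -0.02 for IGF1, with edgeR adjusted p of 0.733 and 0.982. The letters before M or F in the second field are NCN in every niacin library and TNC in every control library. They follow the group, and their meaning is not stated. Sequencing batches are not given in the labels.

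Each gene's pattern over the 6 libraries was set beside that of the 6492 other tested genes of at least 10 CPM, as a description. The gene most like GHR was ENSBTAG00000035030, with a Pearson r of log2 CPM of 0.996. It measured 25.4, 24.5 and 46.9 CPM in niacin replicates 1, 2 and 3. In control replicates 1, 2 and 3 it measured 35.7, 25.5 and 24.1 CPM, so that it too was highest in niacin replicate 3 and next in control replicate 1. The gene most like IGF1 was ENSBTAG00000020124, with an r of 0.952. Its 43.4, 33.1 and 32.0 CPM in niacin replicates 1, 2 and 3 spanned a narrower range than IGF1, and control replicates 1, 2 and 3 measured 35.3, 40.1 and 35.5 CPM. An r of at least 0.9 was shared with GHR by 39 genes and with IGF1 by 6. All values of a library share its scaling, and with 6 points and 6492 genes compared high values of r arise readily. The files pair neither identifier with a symbol.

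Other genes of the axis, such as IGF-binding proteins, JAK2, STAT5B and SOCS2, and markers of hepatocytes and other liver cells could not be looked up, because the RefSeq table used here (assembly ARS-UCD2.0) carried an Ensembl identifier for 0 of its 37063 genes. The tissue label was therefore not checked against its markers. In the RefSeq table, 1 long noncoding RNA gene overlaps the span of GHR and 1 overlaps that of IGF1. The libraries were strand-specific, but the sources used here do not give the strand setting of the counting, so reads of such neighbours may be included or left out. Counts are per gene, and transcripts from the liver-specific and the other promoters of GHR are not separated.

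**Figure D5:**
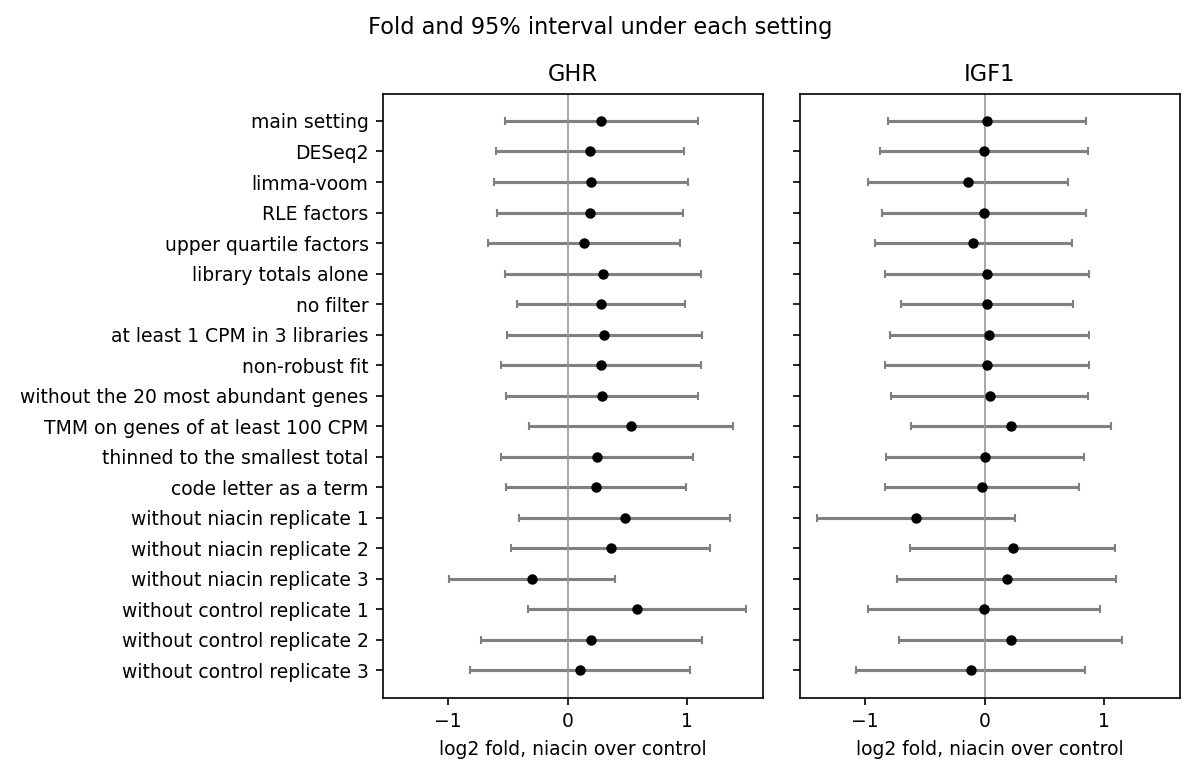
Fitted log2 fold of niacin over control with its 95% interval for GHR (left) and IGF1 (right) under the main setting and 18 alternatives. Every interval holds 0, GHR lies below 0 only without niacin replicate 3, and IGF1 lies on either side of 0.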

How the data were processed

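The authors deposited raw counts per Ensembl gene for 6 poly(A)-selected, strand-specific libraries made from 1500 ng of RNA and read as 150-bp pairs, per the labels' protocols. The submitters' processing notes name TopHat2 2.1.1, HTSeq, Trimmomatic 0.36, FastQC 11.5, DESeq2, Cufflinks 2.2.1 and bedtools 2.30.0, without role or order. No coordinates are printed because genome build and annotation release were not given in the sources used here. Groups came from the agent label, and replicate numbers follow accession order.

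All 23833 genes entered 1 table. Genes were filtered with filterByExpr (minimum count 10), scaled with TMM and tested with edgeR 4.0.16 in R 4.3.3 (quasi-likelihood F test, robust, no covariate, Benjamini-Hochberg over 14839 genes, threshold 0.05). SE is the log2 fold divided by the square root of F. Log2 CPM used a prior count of 2. Single values were compared with two-sided exact permutation tests. Alternatives used DESeq2 1.42.0, limma 3.58.1, other scalings and filters, thinning, and each library left out. The test was checked on simulated data. These were drawn from edgeR's own fitted model, so the check covers the code and not how well the model suits these libraries. For each gene the most similar other gene was named by Pearson r. The genes and lists were chosen with earlier results of these data known.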

Additional observations from a re-analysis of the deposited data

How the results depend on the processing

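Neither gene passed an adjusted p of 0.05 under any of the 18 alternatives run (edgeR, DESeq2 or limma adjusted p from 0.439 to 0.927 for GHR and from 0.446 to 0.998 for IGF1). GHR was higher with niacin in 17 of 18, and ranged from -0.30 to 0.58 (log2 fold) as each library was left out in turn and from 0.14 to 0.53 otherwise. IGF1 changed sign in 8 of 18: it was -0.0052 with DESeq2, -0.14 with limma-voom, -0.0055 with RLE factors, -0.094 with upper quartile factors, -0.021 with the code letter as a term, and from -0.57 to 0.23 as each library was left out. The log2 ratio of IGF1 to GHR, niacin minus control, ranged from -0.94 to 0.26 as each library was left out. The only other settings run for it were counts plus 1, at -0.30, and thinning, at -0.29. All calls ranged from 1653 to 3549 as each library was left out, the lowest without niacin replicate 1, and from 2396 to 3283 otherwise. TMM on genes of at least 100 CPM moved the median log2 fold of all genes from 0.07 to 0.27, and upper quartile factors moved it to -0.07. Relative to that median, GHR was 0.26 and 0.20 and IGF1 was -0.05 and -0.03 under these scalings, against 0.21 and -0.05 in the main setting. The cause of these shifts was not tested. No paired analysis was possible because no replicate number is shared between groups in the labels. Thinning to the smallest total gave 0.25 for GHR and 0.0049 for IGF1. Thinning draws counts at random and keeps their expected shares, so it adds counting noise only. Whether depth bears on either value was not tested.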
